A study of Mus musculus with 3 samples.

Results

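Glycolysis and hypoxia-response genes were followed in activated mouse B cells cultured with JQ1+ or flavopiridol. The members were 34 genes taken by symbol from tables of 33700 genes: a glycolysis set of 18 genes (glucose and lactate transporters, glycolytic enzymes and the kinase Pdk1) and a hypoxia set of 16 genes (Hif1a and genes that respond to it). All 34 were found, and 31 had a mean over the libraries of at least 1 RPKM, a read count scaled to gene length and library size. The other members, Egln3, P4ha2 and Car9, all of the hypoxia set, were below that level.

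The cells were CD43-negative B cells from the spleens of C57BL/6 mice, kept for 3 days in medium with lipopolysaccharide, a bacterial product, and interleukin-4, a T cell cytokine. There were 3 libraries of total RNA, 1 for each group: DMSO (the vehicle), JQ1+ at 80 nM, and flavopiridol at 30 nM. BET proteins, readers of acetylated histones, are pushed off chromatin by JQ1, and flavopiridol inhibits cyclin-dependent kinases, among them the kinase that releases paused RNA polymerase. All cultures carried the same stimulus, and the culture label of both drug libraries repeats that of DMSO, so the groups rest on the treatment label. The age and sex of the mice, the number of mice behind a library and the oxygen level of the cultures are not stated in the labels.

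Glycolysis turns glucose into pyruvate, and activated lymphocytes run it fast and export much of the carbon as lactate. Hypoxia-inducible factor (HIF), a dimer of the Hif1a and Arnt proteins, binds a short DNA element in its target genes. With oxygen, prolyl hydroxylases of the Egln family mark the Hif1a protein for destruction, so HIF activity is set mainly at the protein and not at the RNA. Many glycolytic genes are themselves HIF targets, so the sets are not separate pathways, and many are also targets of MYC.

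Since each group is 1 library, no difference could be set against the spread of replicates and none was tested. Total counts lay between 50184508 and 59786847 per library. Genes that fell or rose are those with log2((RPKM + 1)/(RPKM + 1)) of at most -1 or at least 1, a 2-fold change; other differences are given as values. Beside plain ratios of RPKM stand 95% intervals for counting error, which say nothing of the spread between cultures. RPKM is relative to each library's own total, and in cultures of this kind fewer cells of a type and less RNA per cell cannot be told apart.

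The glycolysis set stood lower with both drugs, and the hypoxia set moved in both directions. With JQ1+, 9 of 18 glycolysis genes fell and 0 rose, where 5.29% of the 14790 genes tested fell and 1.98% rose. Of these 9, 7 passed with libraries rescaled by the median of ratios and 6 with a pseudocount of 5. Under those settings 4.73% and 2.45% of all genes fell. In the hypoxia set with JQ1+, 2 of the 13 genes tested fell and 1 rose, and over every member, including those of low level, 3 of 16 fell. With flavopiridol, 3 of 18 glycolysis genes fell and 0 rose, where 2.88% of all genes fell and 3.55% rose. In the hypoxia set with flavopiridol, 1 of 13 fell and 3 rose. These comparisons share the DMSO library, so a high or low value there enters both.

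The middle of each set shows the same picture. The median log2 change with JQ1+ was -0.93 for the glycolysis set and -0.19 for the tested hypoxia genes (-0.30 for every member), beside -0.08 for all genes. With flavopiridol the medians were -0.46 and -0.08 (-0.14 for every member), beside 0.13 for all genes. The glycolysis median thus lay 0.73 below the hypoxia median with JQ1+ and 0.38 below it with flavopiridol. Between JQ1+ and flavopiridol the medians were -0.49 and -0.56 (-0.49 for every member), beside -0.21 for all genes. The tested hypoxia genes ran from -1.53 to 1.002 with JQ1+ and from -1.11 to 2.26 with flavopiridol, and the glycolysis set from -2.76 to 0.06 and from -2.20 to 0.46. No difference between the sets was tested, since genes of the same libraries are not replicates.

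**Figure D1:**
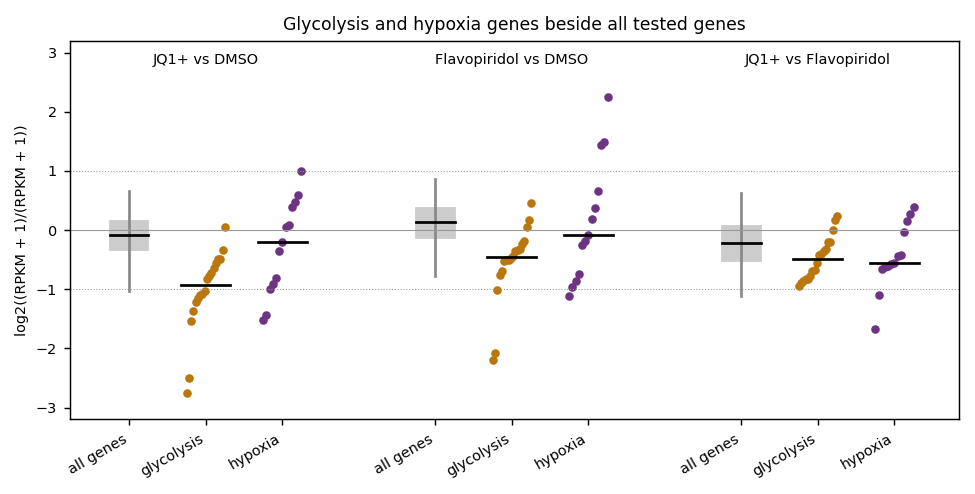
Log2((RPKM + 1)/(RPKM + 1)) in 3 comparisons for all genes tested (grey box from percentile 25 to 75, line from percentile 5 to 95, bar at the median) and for each tested gene of the glycolysis (orange) and hypoxia (purple) sets, with a bar at the median of each set. The glycolysis points lie mostly below 0 in each comparison, with medians of -0.93, -0.46 and -0.49, and the hypoxia points spread to both sides of 0 in the comparisons with DMSO.

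Counting error was small beside most of these differences. With JQ1+, the counting interval of the ratio lay below 1 for 17 of 18 glycolysis genes and above 1 for 0, where 34.3% of all genes lay below and 18.2% above. Among the 13 tested hypoxia genes, 6 lay below and 5 above. With flavopiridol the interval lay below 1 for 15 glycolysis genes and above for 1, where 17.9% of all genes lay below and 38.1% above. Among tested hypoxia genes, 7 lay below and 6 above. An interval narrows as counts rise, so these shares, here and between the drugs, are not like for like. Glycolysis genes ranged widely in level among the genes tested, with Aldoa at percentile 98.6 of RPKM in DMSO and Slc16a3 at 37.5. Summed over the 18 glycolysis genes, the level was 3115 RPKM in DMSO, 1648 in JQ1+ and 2118 in flavopiridol. The hypoxia sum over 16 genes was 468, 366 and 479 RPKM.

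**Figure D2:**
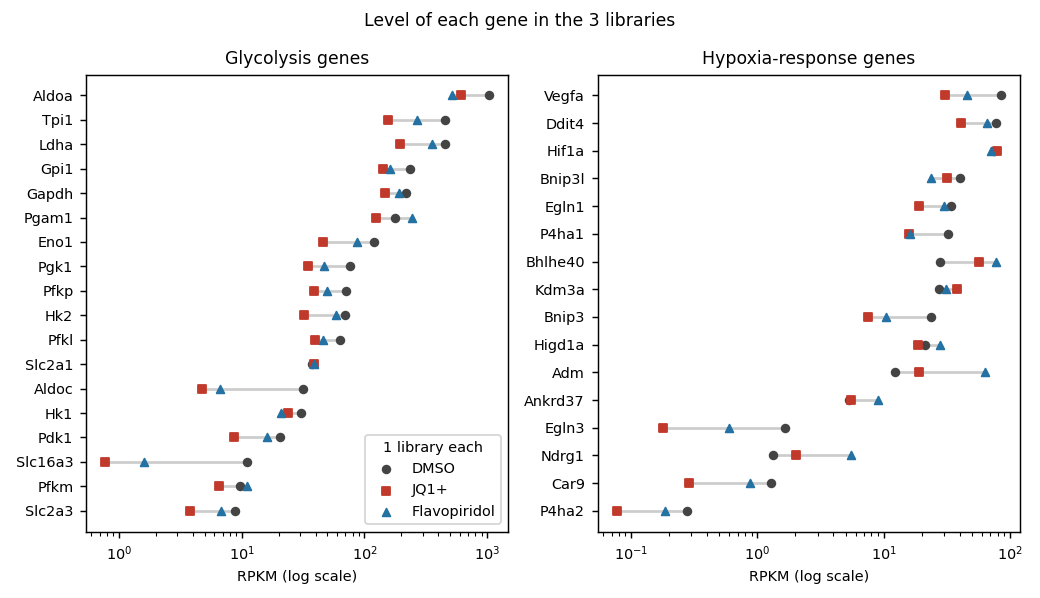
RPKM (log axis) of each gene in the DMSO (grey circle), JQ1+ (red square) and flavopiridol (blue triangle) libraries, 1 library each, with genes ordered by their DMSO level. Aldoa stands highest of the members, at 1035 RPKM in DMSO, and P4ha2 lowest; in the glycolysis set the DMSO circle is the rightmost point for most genes.

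Glucose enters through the transporters encoded by Slc2a1 (GLUT1) and Slc2a3 (GLUT3), which behaved differently. Slc2a1 stood at 37.1 RPKM in DMSO, 38.6 in JQ1+ and 38.5 in flavopiridol. Its log2 changes with JQ1+ and flavopiridol, in that order here and below, were 0.06 and 0.05, the latter changing sign to -0.09 when libraries were rescaled by the median of ratios. It was the one glycolysis gene whose level was not lower with JQ1+. Slc2a3 stood at 8.83 RPKM in DMSO, 3.82 in JQ1+ and 6.78 in flavopiridol. It fell with JQ1+, 2.31-fold lower (interval 1.95 to 2.75), close to the threshold at a log2 change of -1.03, a call lost with the median of ratios (-0.96) and with a pseudocount of 5 (-0.65).

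Hexokinase traps glucose as its phosphate, and of its expressed genes Hk2 passed 2-fold with JQ1+ and Hk1 did not. Hk2 stood at 69.0 RPKM in DMSO, 32.3 in JQ1+ and 58.3 in flavopiridol. It fell with JQ1+, 2.14-fold lower (interval 2.01 to 2.28), and had a log2 change of -0.24 with flavopiridol. The JQ1+ call was lost with the median of ratios and with a pseudocount of 5, both at -0.99. Hk1 stood at 30.4, 23.8 and 21.1 RPKM, with log2 changes of -0.34 and -0.51. Hk2 made up 69.2% of hexokinase RPKM in DMSO, 57.2% in JQ1+ and 73.1% in flavopiridol. Gpi1, which makes fructose 6-phosphate, stood at 234, 141 and 162 RPKM, with log2 changes of -0.72 and -0.53.

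Phosphofructokinase, the committed step, is built from liver, platelet and muscle subunits. The platelet subunit Pfkp stood at 70.3 RPKM in DMSO, 39.2 in JQ1+ and 49.1 in flavopiridol, and the liver subunit Pfkl at 63.0, 39.8 and 46.0. The muscle subunit Pfkm was the least abundant at 9.67, 6.60 and 11.1 RPKM. None of these passed the 2-fold rule, and their log2 changes with JQ1+ were -0.83, -0.65 and -0.49. The sum of the subunits was 143 RPKM in DMSO, 85.6 in JQ1+ and 106 in flavopiridol.

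The aldolases split fructose bisphosphate, and both expressed forms were lower with both drugs. Aldoa, the most abundant member, stood at 1035 RPKM in DMSO, 605 in JQ1+ and 512 in flavopiridol. It fell with flavopiridol, 2.02-fold lower (interval 1.97 to 2.07), only just past the threshold, and its log2 change with JQ1+ was -0.77. It was also 1.18 times as high in JQ1+ as in flavopiridol (interval 1.15 to 1.21), against the direction of most of its set. Aldoc, the brain form, stood at 31.7 RPKM in DMSO, 4.77 in JQ1+ and 6.72 in flavopiridol. It fell 6.66-fold with JQ1+ (interval 5.44 to 8.23) and 4.72-fold with flavopiridol (interval 3.91 to 5.73). Since Aldoa is so abundant, Aldoc was only 2.97% of aldolase RPKM in DMSO and 0.782% in JQ1+.

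In the lower arm of the pathway the values spread from near 3-fold lower to slightly higher. Tpi1, which interconverts the triose phosphates, stood at 455 RPKM in DMSO, 156 in JQ1+ and 269 in flavopiridol. It fell 2.91-fold with JQ1+ (interval 2.78 to 3.05) and had a log2 change of -0.76 with flavopiridol. Gapdh, often used as a reference gene, stood at 217, 148 and 190 RPKM, with log2 changes of -0.55 and -0.19. Pgk1, which makes the first ATP, stood at 76.3, 35.0 and 46.9 RPKM and fell with JQ1+, 2.18-fold lower (interval 1.97 to 2.42). Pgam1, a phosphoglycerate mutase, was the exception with flavopiridol. It stood at 175 RPKM in DMSO, 125 in JQ1+ and 242 in flavopiridol, 1.38 times its DMSO level (interval 1.30 to 1.46). The enolase gene Eno1 stood at 120, 46.0 and 86.4 RPKM and fell 2.60-fold with JQ1+ (interval 2.46 to 2.75).

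At the branch from pyruvate to lactate all members were lower with JQ1+. Ldha, which makes lactate, stood at 452 RPKM in DMSO, 195 in JQ1+ and 355 in flavopiridol, and fell 2.32-fold with JQ1+ (interval 2.23 to 2.40). Pdk1, which shuts pyruvate dehydrogenase and so keeps pyruvate from the mitochondrion, stood at 20.3, 8.61 and 16.0 RPKM, and fell 2.36-fold with JQ1+ (interval 2.12 to 2.64). The Pdk1 call was lost with a pseudocount of 5, at -0.90. Neither passed 2-fold with flavopiridol, at -0.35 and -0.33. The lactate exporter Slc16a3 (MCT4) had the largest change of the 34 members with JQ1+. It stood at 11.0 RPKM in DMSO, 0.778 in JQ1+ and 1.62 in flavopiridol, 14.2-fold lower (interval 9.72 to 21.5) and 6.83-fold lower (interval 5.10 to 9.33). Its rank depends on the pseudocount: with a pseudocount of 5 its log2 change with JQ1+ was -1.47, behind Aldoc (-1.91) and Tpi1 (-1.51).

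**Figure D3:**
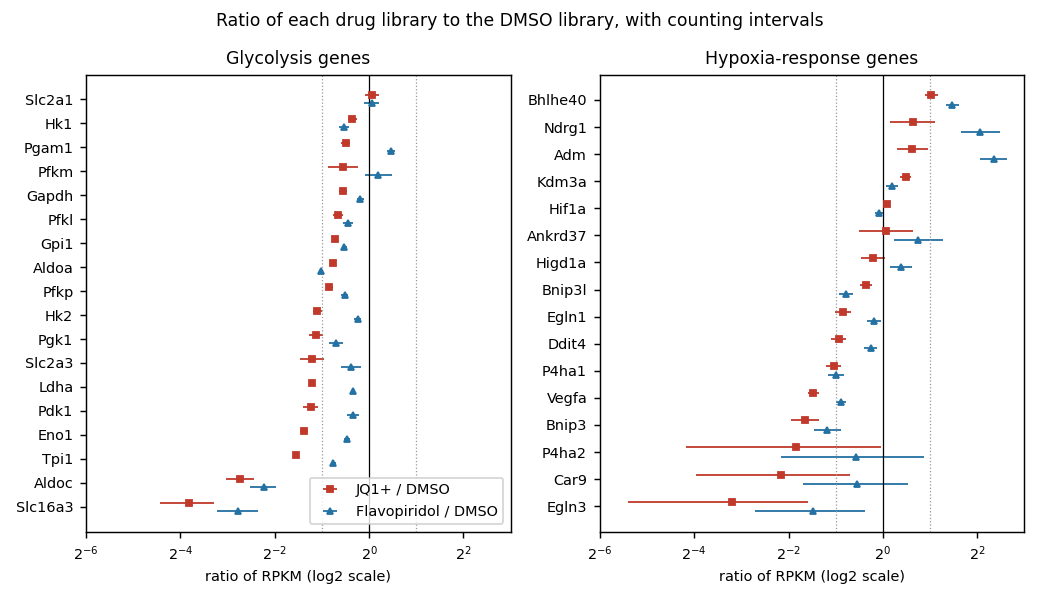
Ratio of RPKM (log2 axis) of JQ1+ (red square) and flavopiridol (blue triangle) to DMSO for each gene, with 95% intervals of counting error. The solid line is a ratio of 1 and the dotted lines are 2-fold. Slc16a3 and Aldoc stand far to the left for both drugs, Slc2a1 sits at 1, and Bhlhe40, Ndrg1 and Adm stand to the right.

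In the hypoxia set the factor itself hardly differed between libraries. Hif1a RNA stood at 74.5 RPKM in DMSO, 78.8 in JQ1+ and 70.5 in flavopiridol, log2 changes of 0.08 and -0.08. Its partner Arnt stood at 21.0, 19.5 and 16.9 RPKM. These are RNA levels, and Hif1a protein was not measured.

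The oxygen sensors Egln1 and Egln3, which are also HIF targets, were lower in the JQ1+ library. Egln1 (PHD2) stood at 34.3 RPKM in DMSO, 19.2 in JQ1+ and 30.2 in flavopiridol, with log2 changes of -0.81 and -0.18. Egln3 (PHD3) stood at 1.64, 0.179 and 0.591 RPKM, from 92, 9 and 27 counts. It was 9.17-fold lower with JQ1+, but the interval from 3.00 to 42.3 is wide at this depth. Egln2, which is outside the set, made up 65.8% of the RPKM of the family in DMSO and 79.2% in JQ1+.

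Mitochondrial and mitophagy genes of the set were not alike. Bnip3, a mitophagy receptor, fell with both drugs, from 23.7 RPKM in DMSO to 7.58 in JQ1+ and 10.5 in flavopiridol, 3.13-fold (interval 2.54 to 3.87) and 2.26-fold (interval 1.86 to 2.77) lower. The Bnip3 call with flavopiridol was lost with a pseudocount of 5, at -0.89. Its relative Bnip3l stood at 40.6, 31.6 and 23.8 RPKM, so it was lowest in flavopiridol where Bnip3 was lowest in JQ1+. Bnip3 was 36.8% of the RPKM of the pair in DMSO, 19.3% in JQ1+ and 30.6% in flavopiridol. Higd1a, a respiratory chain assembly factor, stood at 21.4, 18.6 and 27.9 RPKM with log2 changes of -0.19 and 0.37.

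The secreted factors of the set went opposite ways. Vegfa, the angiogenic growth factor, stood at 84.8 RPKM in DMSO, 30.6 in JQ1+ and 46.0 in flavopiridol. It fell 2.77-fold with JQ1+ (interval 2.57 to 2.99) and was 1.84-fold lower with flavopiridol, a log2 change of -0.87 that passed the threshold only after rescaling by the median of ratios, at -1.01. Adm, the vasodilator peptide adrenomedullin, stood at 12.4, 19.1 and 63.0 RPKM. It rose 5.08-fold with flavopiridol (interval 4.18 to 6.22), the largest rise among the members, and had a log2 change of 0.59 with JQ1+.

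Other members that were higher with the drugs were Bhlhe40, Ndrg1, Ankrd37 and Kdm3a. Bhlhe40, a transcriptional repressor, rose from 28.2 RPKM in DMSO to 57.5 in JQ1+ and 78.3 in flavopiridol, 2.04 (interval 1.86 to 2.24) and 2.78 times (interval 2.53 to 3.04) as high. The JQ1+ rise was at the threshold, with a log2 change of 1.002, and did not pass with a pseudocount of 5. Ndrg1, a stress-induced gene of the N-myc downstream regulated family, stood at 1.32, 2.04 and 5.51 RPKM and rose 4.17-fold with flavopiridol (interval 3.15 to 5.61). That rise did not pass with a pseudocount of 5, at a log2 change of 0.73. An antisense gene over Ndrg1, Gm17035, stood at 2.78, 5.32 and 9.46 RPKM. These came from 25, 42 and 68 counts, where Ndrg1 had 183, 254 and 623. Use of strand in the counting is not stated, so reads from the stretch they share (336 bases aligned) cannot be told apart. Ankrd37, an ankyrin repeat gene, stood at 5.32, 5.56 and 8.97 RPKM, and the histone demethylase Kdm3a at 27.4, 38.3 and 31.5.

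The remaining members were lower or near the limit of the depth. P4ha1, the catalytic subunit of collagen prolyl hydroxylase, stood at 32.5 RPKM in DMSO, 15.8 in JQ1+ and 16.2 in flavopiridol. It was 2.06-fold (interval 1.84 to 2.31) lower in plain RPKM with JQ1+ and at about the same ratio with flavopiridol (interval 1.78 to 2.25), but just inside the threshold with the pseudocount, at -0.996 and -0.957. Ddit4, an inhibitor of mTOR signalling, stood at 78.4, 41.0 and 65.6 RPKM with log2 changes of -0.92 and -0.26. Car9, a carbonic anhydrase used as a hypoxia marker, stood at 1.28, 0.288 and 0.872 RPKM, and P4ha2 at 0.278, 0.077 and 0.187, each from 62 counts or fewer per library.

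Between the drugs, 0 of 18 glycolysis genes passed 2-fold, and 2 of 13 hypoxia genes were lower in JQ1+, where 6.87% of all genes were lower and 2.06% higher. These were Adm, at a level 3.30-fold below that in flavopiridol (interval 2.78 to 3.92), and Ndrg1, 2.70-fold below it (interval 2.11 to 3.48). Within 2-fold, 15 of 18 glycolysis genes had a counting interval below 1, among them Pgam1 (-0.95), Eno1 (-0.89), Ldha (-0.86), Pdk1 (-0.83) and Hk2 (-0.83), where 45.9% of all genes had one. Aldoa, Hk1 and, in the hypoxia set, Bnip3l (0.40), Kdm3a (0.27) and Hif1a (0.16) were higher in JQ1+, with an interval above 1, where 14.1% of all genes had one. P4ha1 (-0.04) was level between them, and its sign, like that of Pfkl and Gpi1 (both -0.20), turned when libraries were rescaled by the median of ratios. The doses differ, 80 and 30 nM, and the compounds are not structurally related.

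**Figure D4:**
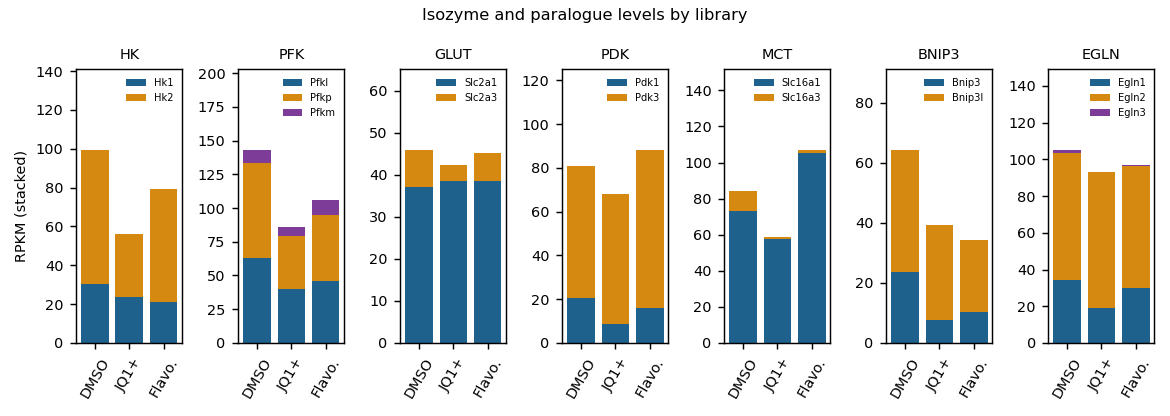
Stacked RPKM of related genes in each library (Flavo. is flavopiridol): hexokinases (HK), phosphofructokinase subunits (PFK), the glucose transporters GLUT1 and GLUT3 (GLUT), pyruvate dehydrogenase kinases (PDK), monocarboxylate transporters (MCT), the Bnip3 pair and the Egln family, without the scarcer hexokinase, PDK and MCT forms, each under 3 RPKM in every library. Hk2, Pdk1, Slc16a3 and Bnip3 shrink with JQ1+ while Hk1, Pdk3, Slc16a1 and Bnip3l keep most of their level.

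Slc16a3 and Pdk1 were the smaller part of their families in every library. Slc16a1 (MCT1), the other main lactate transporter, stood at 73.1 RPKM in DMSO, 57.8 in JQ1+ and 105 in flavopiridol. Slc16a3 was thus 13.0% of the summed RPKM of Slc16a1, Slc16a3 and Slc16a7 in DMSO, 1.30% in JQ1+ and 1.48% in flavopiridol. Pdk3 stood at 60.7, 59.5 and 72.2 RPKM, and Pdk1 was 24.9%, 12.5% and 18.1% of the kinase family. Ldha by contrast made up at least 98.6% of lactate dehydrogenase RPKM in every library.

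In further lists of these pathways few genes passed 2-fold against DMSO. At these list sizes the numbers were near the shares over all genes (with JQ1+ 5.29% lower and 1.98% higher, with flavopiridol 2.88% and 3.55%). Of 15 further glycolysis and glycolysis-regulating genes tested, 0 passed 2-fold with JQ1+ or with flavopiridol, with medians of -0.09 and 0.30. The most abundant of them, the pyruvate kinase gene Pkm, stood at 1594 RPKM in DMSO, 855 in JQ1+ and 1197 in flavopiridol, log2 changes of -0.90 and -0.41. Phosphoglucomutase Pgm2 (-0.93 and -0.40) was similar, while Eno3 (-0.67 and 0.30) and the glucose 6-phosphatase G6pc3 (-0.61 and 0.43) differed in sign. Of 15 genes of lactate and pyruvate handling 1 fell with each drug, the testis-type lactate dehydrogenase Ldhc, from 6.17 RPKM in DMSO to 0.109 and 0.295. The medians of that list were -0.15 and 0.25. The 8 genes of the pentose phosphate pathway, which branches from glucose 6-phosphate, had 0 members past 2-fold and medians of -0.01 and 0.22. The 5 other glucose transporters tested also had 0, with medians of -0.07 and 0.21. Slc2a9 had the largest change of these with JQ1+ (-0.83), and 0.21 with flavopiridol. The most abundant of these, Slc2a6 (GLUT6), named after its values were seen, stood at 123, 117 and 126 RPKM, above Slc2a1 in each library. Between the drugs, G6pc3 and Slc2a9 (both -1.04) were the only genes of these lists past 2-fold. Both were lower in JQ1+, where 6.87% of all genes were lower.

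Genes of oxygen sensing and further HIF-responsive genes gave a mixed picture. Of 13 factors and cofactors of HIF tested 0 passed 2-fold with either drug, and the medians were 0.07 and 0.21. The ubiquitin ligase gene Siah2, which targets Egln proteins, stood at 107, 70.1 and 157 RPKM, and the HIF inhibitor Cited2 at 74.8, 49.4 and 83.9. Siah2 was the 1 of 13 past 2-fold between the drugs, lower in JQ1+ (-1.15). Of 28 further HIF-responsive genes tested, 2 fell and 0 rose with JQ1+, and 0 fell and 2 rose with flavopiridol, with medians of -0.27 and 0.06. Each 2 of 28 is 7.14%, near the 5.29% of all genes that fell with JQ1+ and the 3.55% that rose with flavopiridol. Between the drugs, 5 of 28 (17.9%) were lower in JQ1+ and 0 higher, where 6.87% and 2.06% of all genes were. The cytokine gene Mif fell with JQ1+, from 726 RPKM in DMSO to 318, and stood at 899 in flavopiridol. Hilpda, a lipid droplet protein, stood at 9.65, 6.83 and 20.1 RPKM, and the collagen lysyl hydroxylase Plod2 at 2.39, 1.16 and 5.14. Gys1, a glycogen synthase, was the other gene that fell with JQ1+ (-1.11), and Cxcr4 (1.19) and Bhlhe41 (1.15) were those that rose with flavopiridol; these 3 were named after their values were seen.

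The start regions of members were searched for the core letters of the HIF element, ACGTG or GCGTG, on both strands, since the hypoxia set was chosen for response to this factor. The windows are RefSeq promoters of build GRCm38.p6 running from 250 bases before to 50 after a start, and 30 of 34 members had at least 1. Of 44 member windows, 35 (79.5%) held a core, where 62.1% of windows of the genes tested and 43.8% of all windows did. ACGTG alone was in 54.5% of member windows, against 25.7% and 19.6%. The hexamer CACGTG, the E-box that MYC and its partner MAX bind and which contains ACGTG, was in 9.09% against 10.1% and 7.15%. By set, 13 of 16 hypoxia windows (81.2%) and 22 of 28 glycolysis windows (78.6%) held a core. The hypoxia genes were picked as HIF-responsive and the glycolysis genes by function, and for neither set are the shares evidence of binding in these cells. The 250 bases before the start are shown for members that were lower with both drugs (Slc16a3, Bnip3, Pgk1, Egln3) and for Adm, which rose with flavopiridol, with each core in capitals (CACGT and CACGC are the cores read from the other strand).
Slc16a3 (chr11:120948817-120949066, plus strand): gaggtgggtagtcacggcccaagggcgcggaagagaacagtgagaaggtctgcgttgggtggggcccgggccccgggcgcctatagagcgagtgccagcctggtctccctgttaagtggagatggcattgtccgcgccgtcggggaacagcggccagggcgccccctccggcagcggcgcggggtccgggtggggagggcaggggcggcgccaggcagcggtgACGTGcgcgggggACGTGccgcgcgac
Bnip3 (chr7:138909507-138909756, minus strand): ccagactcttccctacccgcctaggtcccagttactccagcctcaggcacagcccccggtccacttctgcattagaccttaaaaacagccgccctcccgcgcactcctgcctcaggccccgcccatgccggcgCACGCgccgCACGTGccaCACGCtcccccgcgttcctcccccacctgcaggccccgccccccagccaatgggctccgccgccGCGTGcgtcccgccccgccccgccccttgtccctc
Pgk1 (chrX:106186850-106187099, plus strand): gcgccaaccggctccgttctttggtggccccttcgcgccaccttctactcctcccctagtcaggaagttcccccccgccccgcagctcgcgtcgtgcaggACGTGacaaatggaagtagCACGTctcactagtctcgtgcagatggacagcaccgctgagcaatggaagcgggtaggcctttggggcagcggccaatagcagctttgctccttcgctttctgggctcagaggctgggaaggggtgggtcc
Egln3 (chr12:54203875-54204124, minus strand): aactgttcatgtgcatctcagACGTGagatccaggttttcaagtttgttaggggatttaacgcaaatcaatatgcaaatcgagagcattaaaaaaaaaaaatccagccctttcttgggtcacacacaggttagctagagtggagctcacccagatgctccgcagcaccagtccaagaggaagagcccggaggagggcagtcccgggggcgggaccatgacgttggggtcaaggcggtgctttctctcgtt
Adm (chr7:110627407-110627656, plus strand): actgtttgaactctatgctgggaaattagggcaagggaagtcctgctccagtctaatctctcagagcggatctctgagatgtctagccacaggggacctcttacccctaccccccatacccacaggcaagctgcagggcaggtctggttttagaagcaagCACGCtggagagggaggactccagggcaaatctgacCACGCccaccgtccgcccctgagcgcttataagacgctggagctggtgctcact

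Slc16a3 had 2 cores close to the start, Bnip3 5 cores, and Pgk1 2 cores on opposite strands. In Bnip3 the E-box CACGTG was counted once for each strand. Egln3 had 1 core and Adm 2, both of the form CACGC. A core was therefore found in windows of genes that moved in either direction, and a match of letters is not a binding site. Tpi1 and Gpi1, lower with both drugs, had no core in their windows.

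Several members share long stretches of near-identical sequence with other rows of the tables, which bears on their levels. Of the 34 members, 9 aligned to at least 1 other gene over at least 200 bases with at least 95% identity on the same strand, judged from GENCODE M21 transcripts. Gapdh had 46 such copies, which held 88.4% of the counts of Gapdh and its copies together in DMSO. The copies of Pgk1, one of them Pgk1-rs7 at 587 RPKM in DMSO, held 89.2%, those of Eno1 70.6%, the copy of Gpi1 42.2%, that of Higd1a 40.5% and that of Pgam1 38.5%. Bnip3, Bnip3l and Ldha had smaller shares, from 10.1% to 21.5%. Reads with several matches may have been counted at more than 1 row or split among them, so the printed levels of these members are uncertain. When counts were summed over each of these 9 genes and its copies, none of them crossed the 2-fold threshold or changed sign in any of the 3 comparisons. If reads were counted at every matching row, such sums repeat the same reads. The sums therefore cannot assign a change to the member or to a copy. Pgk1, for example, had a log2 change of -1.16 with JQ1+ in the summed counts (scaled to the library sum) and -1.10 alone. Pfkp overlaps Pitrm1 on the opposite strand over 748 bases, and Pitrm1 stood at 77.9, 100.4 and 125 RPKM, against the direction of Pfkp.

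Beside these results some features of the libraries moved as well. All 8 B cell markers were present, with a summed level of 11924 RPKM in DMSO, 13423 in JQ1+ and 9492 in flavopiridol. The 6 dendritic cell markers summed to 90.0, 10.7 and 35.1 RPKM, in the same order as the glycolysis set, with 2, 0 and 1 of them at 0. The 6 stromal markers summed to 22.8, 5.69 and 12.4 RPKM, and the T cell, myeloid, cytotoxic and erythroid lists to at most 33.6 RPKM in any library. Of the dendritic markers 2 fell with JQ1+ and 1 with flavopiridol, and of the stromal markers 1 and 0. The rest of both lists did not fall by the 2-fold rule, so the sums may rest on few genes. Of all genes tested 5.29% fell with JQ1+ and 2.88% with flavopiridol, while the markers were counted with no minimum level. Myc stood at 194 RPKM in DMSO, 76.2 in JQ1+ and 243 in flavopiridol. The part of these in the glycolysis and hypoxia values was not tested. The scale also matters: with the median of ratios the median of all genes under flavopiridol went from 0.13 to -0.001 and the share of called genes that were lower from 44.8% to 58.2%. Between the drugs that share went from 77.0% to 57.3%.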

How the data were processed

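RNA was measured in 3 libraries, grouped by their treatment label. Ribo-Zero depletion of ribosomal RNA followed Trizol extraction, per the labels' protocols. Each table gives a whole-number count per gene, not normalised, per the file headers, and an RPKM scaled by the authors to gene length and a library total. The submitters' processing notes name build mm9. The aligner, counter, annotation, strand use and treatment of reads with several matches remain not given in the sources used here.

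Members and lists were chosen with earlier results of these data known. All 34 members are described. Of each further list up to 4 genes with the largest change and a mean of at least 1 RPKM were picked for naming. Not all of these picks are described. Relatives and partners of members, and genes marked as named after their values were seen, stand outside that rule. A repeated symbol was represented by its most abundant row, which left 33605 symbols and, at a mean of 1 RPKM or more, 14790. Change was log2((a + 1)/(b + 1)) of RPKM, called at a size of at least 1. It understates changes of low genes. Library totals behind the RPKM were derived from GENCODE M21 exon lengths, matched by identifier, and the counts summed to 2.84 (DMSO), 2.72 (JQ1+) and 2.92 (flavopiridol) times those totals. Counts were therefore not treated as independent fragments, and were divided by these factors for the exact conditional binomial 95% intervals. The exon lengths matched the totals for 45.7% (DMSO), 45.6% (JQ1+) and 45.5% (flavopiridol) of the genes used. As 1 factor was used per library, intervals may be too narrow for members with many copied reads. Intervals cover counting error only. No count model was used, since 1 library per group gives no spread. Sequence copies were found with blastn. Calculations used Python 3.11.15, numpy 2.4.6, pandas 2.3.3 and scipy 1.17.1. Alternatives were other pseudocounts, scalings, filters and backgrounds, undivided counts and, added after the data were seen, sums with sequence copies.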

Additional observations from a re-analysis of the deposited data

How the results depend on the processing

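No paired analysis was possible because each group has 1 library. Leaving out a replicate was not possible for the same reason. Counts of genes past 2-fold and medians of the sets were recomputed with pseudocounts of 0.1 and 5, rescaling by the median of ratios, CPM, a minimum of 5 RPKM, no filter and protein-coding genes only. With a pseudocount of 5, the glycolysis median with JQ1+ was -0.77 and between the drugs -0.36, 0 hypoxia genes rose with JQ1+, 0 fell with flavopiridol, and 1 was lower in JQ1+ than in flavopiridol. With a pseudocount of 0.1 the glycolysis median between the drugs was -0.61. With a minimum of 5 RPKM the glycolysis median with JQ1+ was -0.83, the difference of the set medians -0.56, and 1 hypoxia gene was lower between the drugs. With the median of ratios the glycolysis median was -0.60 with flavopiridol and -0.33 between the drugs, the hypoxia median between the drugs was -0.34, 3 hypoxia genes fell with flavopiridol and 1 was lower between the drugs. With CPM 2 hypoxia genes fell with flavopiridol. The shares of all genes moved too. With flavopiridol 3.73% were lower with the median of ratios, 2.22% with CPM and 1.24% with a pseudocount of 5. Between the drugs the shares lower in JQ1+ were 4.28% (median of ratios), 2.22% (pseudocount of 5) and 4.98% (minimum of 5 RPKM). With JQ1+ 0.568% were higher with a pseudocount of 5. The other set medians and counts moved by less than the counting intervals, or by no more than 1.5 times. The causes were not tested. Of 672 recomputed values of single members 14 crossed 2-fold and 5 changed sign, none of a member past 2-fold. Those that crossed were P4ha1, Vegfa, Hk2, Slc2a3, Pdk1, Bhlhe40, Bnip3 and Ndrg1. Depth limits Egln3, Car9 and P4ha2, whose intervals span more than 3-fold in each comparison.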

Other observations

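Genes of mitophagy and autophagy that work beside Bnip3 were described as a further list. Of 12 tested, 0 passed 2-fold with JQ1+ and 0 with flavopiridol, with medians of 0.06 and 0.04. Over all genes 5.29% fell and 1.98% rose with JQ1+, and 2.88% and 3.55% with flavopiridol. At this list size 0 is near those shares. Pink1, the kinase that marks damaged mitochondria, stood at 32.3 RPKM in DMSO, 37.8 in JQ1+ and 20.2 in flavopiridol. The mitophagy receptor Fundc1 had log2 changes of -0.31 and 0.34 with JQ1+ and flavopiridol. The LC3-family genes went both ways. In the same order of libraries Map1lc3a stood at 7.49, 6.90 and 3.82 RPKM and Gabarapl1 at 32.2, 25.7 and 45.6. The more abundant Map1lc3b stood at 56.3, 83.3 and 58.1 RPKM and Gabarap at 179.8, 264.5 and 184.6, the levels in JQ1+ being 1.48 (interval 1.34 to 1.63) and 1.47 times (interval 1.40 to 1.55) those in DMSO; this pair was named after its values were seen.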
